A study of Mus musculus with 8 samples.

Results

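Integrins are adhesion receptors made of 1 alpha chain and 1 beta chain, and 10 of their genes are described here in cardiac macrophages: Itga9, Itgb1, Itga4, Itga5, Itga6, Itgav, Itgb2, Itgb5, Itgal and Itgax. They were taken by gene symbol from a table of 24516 genes, and they were chosen by the levels of Itga9 in these same libraries, where it was known to differ between the groups. The levels in the compared groups are therefore a description and carry no test. The 4 libraries of EcTM, macrophages derived from the endocardium, are called E591, E592, E604 and E606, and the 4 of non-EcTM, macrophages without that origin, are called N591, N592, N604 and N606. Mice were C57BL/6, had reached postnatal day 28 and carried the genotype Nfatc1Cre/+; Rosa26Tomato reporter/+. Every mouse, those that gave the non-EcTM included, thus carried the Cre at Nfatc1, a gene active in endocardium, and the reporter that Cre switches on. EcTM therefore means cells with a history of that driver. The labels do not say what gate defined the non-EcTM, whether animals were pooled, or whether libraries of the same number came from 1 animal, so p-values measure the spread between these libraries.

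Each integrin heterodimer binds its own set of ligands outside the cell, and its short tails inside bind talin and kindlin, which switch the receptor on. The chain encoded by Itga9 is known to pair with the beta1 chain of Itgb1 and to bind tenascin-C, osteopontin and VCAM1. The alpha4 chain of Itga4 is its closest relative and shares several ligands with it. The beta2 chain of Itgb2 is restricted to leukocytes and pairs with the chains of Itgal, Itgam, Itgax and Itgad.

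Total counts were 2152425 to 2576407 in EcTM and 2281657 to 2937464 in non-EcTM. The 12 macrophage markers all had counts and together reached 28597 to 29707 CPM in EcTM libraries, against 26954 to 29531 CPM in non-EcTM libraries. CPM are counts scaled by each library's effective total. Nfatc1 was listed at 0 in 8 of 8 libraries. The table lists 41.6% of its genes at 0 everywhere, among them Ctss and Rpl38, which macrophages use heavily, so a listed 0 was not read as absence. N591 had the highest summed CPM of endothelial markers, 890, against 32.5 to 337 CPM in EcTM and 87.3 to 147 CPM in N592, N604 and N606. Ddx3y, a Y-linked gene, had 260 counts in E592, 307 in N592 and 1 to 7 in the others, so the animals' sex and the pair E592 and N592 cannot be told apart.

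Sequence was at hand for the starts of 7 of the 10 genes (RefSeq, GRCm38.p6), and the windows of Itga9 and Itgax are shown because Itgax was the chain whose pattern over the libraries was most like that of Itga9, and because both windows hold the same letters. Each window of 300 bases spans the annotated start, mostly upstream of it, and is written 5′ to 3′ on the plus strand. Capitals mark TGACTCA on either strand (TGAGTCA on the other), the letters that AP-1 factors are known to prefer. The Itga9 window lies at chr9:118711442-118711741, around the RefSeq start of a shorter transcript inside the gene. The Itgax window lies at chr7:128129300-128129599.
Itga9: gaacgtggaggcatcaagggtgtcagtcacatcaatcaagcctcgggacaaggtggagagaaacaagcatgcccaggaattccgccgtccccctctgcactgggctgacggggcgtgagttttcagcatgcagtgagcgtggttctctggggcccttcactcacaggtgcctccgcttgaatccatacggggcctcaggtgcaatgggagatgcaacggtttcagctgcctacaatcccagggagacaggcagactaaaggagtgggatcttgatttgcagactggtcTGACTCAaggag
Itgax: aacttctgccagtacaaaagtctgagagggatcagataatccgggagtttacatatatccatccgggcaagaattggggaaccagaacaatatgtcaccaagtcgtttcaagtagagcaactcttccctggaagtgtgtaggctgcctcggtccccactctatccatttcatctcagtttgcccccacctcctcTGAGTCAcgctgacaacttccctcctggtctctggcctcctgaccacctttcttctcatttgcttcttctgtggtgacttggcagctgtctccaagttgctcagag
These 2 were the windows with TGACTCA among the 7, and 5.20% of 32851 RefSeq windows of the same length hold it. The letters GAGGAA, searched on both strands, a core that the macrophage factor PU.1 is known to bind, were in the windows of Itgav, Itgb1 and Itga5 and in 28.3% of all windows. A match is a string of letters and was not tested for binding.

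Itga9 had the widest range of the 10 chains in CPM. It stood at 924, 654, 247 and 1529 CPM in E591, E592, E604 and E606, and at 219, 199, 207 and 251 CPM in N591, N592, N604 and N606. Itga9 was thus high in 3 EcTM libraries, while E604 lay just under the highest non-EcTM library, so the groups overlapped. In libraries of sorted cells in bulk, fewer cells that express a gene and less of its RNA per cell cannot be told apart. The group means were 839 ± 538 CPM across EcTM, against 219 ± 23.0 CPM across non-EcTM (SD, n = 4 each), a 3.83-fold ratio, and the fitted log2 fold change (EcTM minus non-EcTM) was 1.94 ± 0.35 (SE). These values rest on 564 to 3873 counts of Itga9 per EcTM library and 475 to 761 per non-EcTM library, which set a counting error of 1.61% to 4.59%. The authors' deposited log2 values of Itga9, a regularised log scale that pulls genes toward their mean, were 10.97, 10.53, 9.29 and 11.64 in EcTM and 9.15, 9.02, 9.07 and 9.30 in non-EcTM in the same order.

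**Figure D1:**
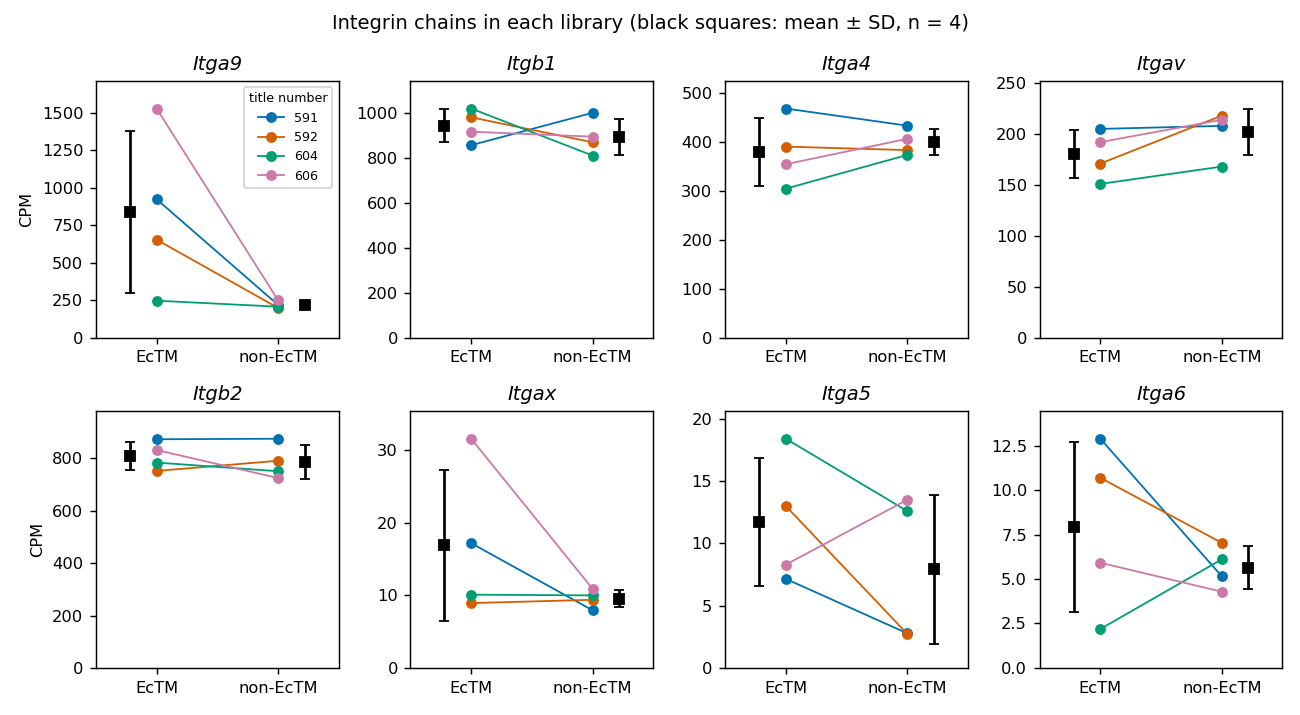
Expression (CPM, linear axes from 0) of 8 integrin chains in each library, EcTM left and non-EcTM right, where a line links each pair and a black square with a bar gives mean ± SD (n = 4). Itga9 runs from 247 to 1529 CPM in EcTM and from 199 to 251 CPM in non-EcTM, while Itgb1, Itga4, Itgav and Itgb2 have overlapping groups of similar level.

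Libraries of the same number were compared with each other as pairs. The log2 ratio of Itga9 was 2.07 between E591 and N591, 1.71 between E592 and N592, 0.25 between E604 and N604 and 2.60 between E606 and N606. It was positive in 4 of 4 pairs, with a mean of 1.66 and an SD of 1.01, and in linear terms it ran from 1.19-fold to 6.09-fold. With the number as a replicate block the fitted value was 1.70 ± 0.20 (SE). The SE of a fit is derived from its F-test, where the spread is estimated partly from all tested genes. For Itga9 0.20 is smaller than the SD of 1.01 over 4 pairs would give. The 0.35 of the fit without the block is likewise smaller than the SD of 1.11 among EcTM libraries would give. The fits thus understate how far the libraries differed. Of the 8 chains with enough counts to be tested, Itga9 was the 1 with a higher level in EcTM in 4 of 4 pairs, a pattern seen in 7.26% of 7667 tested genes. Itgav was the 1 with a lower level in 4 of 4 pairs, which 6.93% of genes showed.

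The spread of Itga9 lay on the EcTM side. Its SD of log2 CPM was 1.11 among EcTM libraries and 0.15 among non-EcTM libraries, where the medians over all tested genes were 0.43 and 0.33. Of 414 tested genes at least as abundant as Itga9 over the 8 libraries, itself included, 0 had a larger SD among EcTM libraries. Over all tested genes 942 did. Itga9 was chosen by these same EcTM values, which also raise its abundance, so its place among the genes is a description and no support. Among non-EcTM libraries its SD was larger than that of 16.4% of all tested genes.

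Itga9 averaged 572 CPM over E591 and N591, 426 CPM over E592 and N592, 227 CPM over E604 and N604 and 890 CPM over E606 and N606. It varied between these pairs mostly on the EcTM side, where it ran from 247 to 1529 CPM, against 199 to 251 CPM in non-EcTM. A comparison of the 4 numbers over all genes, with the group as covariate, called 233 of 7667 genes (3.04%) in edgeR and 442 of 8489 (5.21%) in DESeq2. Of the 8 chains it called 1, Itga9, in edgeR and 0 in DESeq2. Since these are the same EcTM values by which Itga9 was chosen, the chains' counts are given without a reading.

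**Figure D2:**
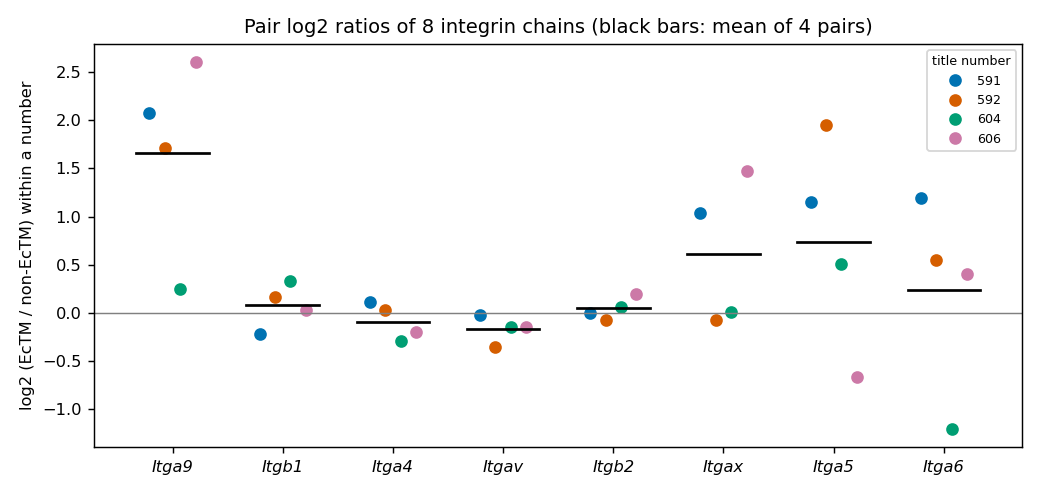
Log2 ratio of EcTM over non-EcTM within each title number (points) for 8 integrin chains, with black bars for the mean of 4 pairs. Itga9 has 3 pairs at 1.71 to 2.60 and the pair of E604 and N604 at 0.25, Itgb1, Itga4, Itgav and Itgb2 stay within -0.35 to 0.33, and the thinly counted Itgax, Itga5 and Itga6 scatter to both sides.

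The beta1 chain, the partner of the Itga9 product, did not share its range. Itgb1 stood at 856, 980, 1019 and 916 CPM in E591, E592, E604 and E606, and at 1000, 869, 810 and 894 CPM in N591, N592, N604 and N606. The groups of Itgb1 overlapped, with a log2 fold change of 0.08 ± 0.10 and 3 of 4 pairs higher in EcTM. Counts within 1 library need no scaling between libraries, and per 100 counts of Itgb1 there were 108, 66.7, 24.3 and 167 counts of Itga9 in E591, E592, E604 and E606, against 21.9, 22.9, 25.6 and 28.1 in N591, N592, N604 and N606. This ratio put E604 inside the non-EcTM range and the other 3 EcTM libraries above it. It compares libraries and does not say how many alpha9 chains there are for each beta1 chain, since the genes differ in length and perhaps in the share of reads counted.

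**Figure D3:**
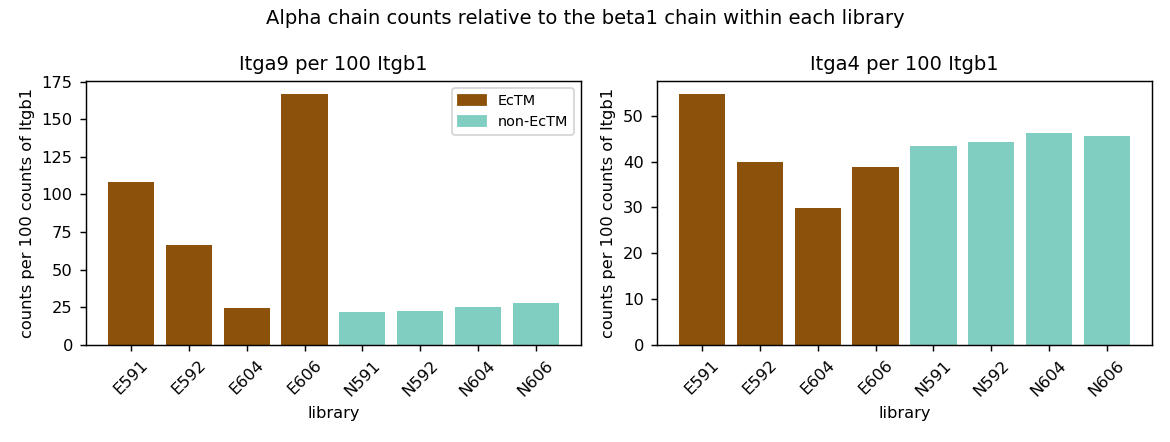
Counts of Itga9 (left) and Itga4 (right) per 100 counts of Itgb1 in each library, EcTM bars before non-EcTM bars. For Itga9 3 EcTM libraries stand at 66.7 to 167 and the other 5 libraries at 21.9 to 28.1, while Itga4 lies between 29.9 and 54.8 in EcTM and between 43.4 and 46.2 in non-EcTM.

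Itga4 encodes the alpha4 chain, which pairs with beta1 or beta7 and holds leukocytes to VCAM1 and fibronectin. It had 469, 391, 305 and 355 CPM in E591, E592, E604 and E606, and 434, 384, 374 and 407 CPM in N591, N592, N604 and N606. EcTM spread to both sides of the non-EcTM range, with a log2 fold change of -0.07 ± 0.13 and 2 of 4 pairs higher in EcTM. E604, the EcTM library lowest in Itga9, was also the lowest in Itga4, and E591 was the highest in Itga4. Per 100 counts of Itga4 there were 197, 167, 81.2 and 431 counts of Itga9 in the EcTM libraries in the order of their numbers, against 50.5, 51.8, 55.4 and 61.7 in the non-EcTM libraries. By this ratio all 4 EcTM libraries lay above all 4 non-EcTM libraries, but E604 did so on the lowest Itga4 level of the 8 libraries. Its Itga9 level itself, 247 CPM, was under the 251 CPM of N606. Per 100 counts of Itgb1, E604 lay inside the non-EcTM range. Itga9 was chosen by these values, so the ratio is a description, and other genes were not compared in this way.

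Itgav encodes the alphav chain, which binds vitronectin and latent TGF-beta with several beta chains. Its levels were 205, 171, 151 and 192 CPM in E591, E592, E604 and E606, and 208, 218, 168 and 214 CPM in N591, N592, N604 and N606. Each EcTM library was under the non-EcTM library of its number, by log2 ratios of -0.02 to -0.35, yet the groups overlapped and the log2 fold change of -0.17 ± 0.14 was close to its SE.

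Itgb2, the leukocyte beta chain, was even across the libraries. It stood at 873, 752, 784 and 832 CPM in E591, E592, E604 and E606, and at 875, 791, 751 and 725 CPM in N591, N592, N604 and N606. Its log2 fold change was 0.05 ± 0.10 with 2 of 4 pairs higher in EcTM, and its SD of log2 CPM in EcTM, 0.09, was above that of 3.26% of tested genes. Of its alpha partners, Itgax, which encodes CD11c, a chain of dendritic cells and some macrophages, had low counts. Itgax had 36, 20, 23 and 80 counts in E591, E592, E604 and E606 (17.2, 8.94, 10.1 and 31.6 CPM), and 20, 24, 23 and 33 counts in N591, N592, N604 and N606 (7.94 to 10.9 CPM). E606 and E591, the 2 libraries highest in Itga9, were also the 2 highest in Itgax, and the log2 fold change of Itgax was 0.82 ± 0.48. It was 0.33 without E606, and the authors' deposited log2 values gave a difference of 0.14. As a measured fact beside this, the 7 dendritic cell markers summed to 15.0 CPM in E606, the lowest of the EcTM libraries, to 20.6 to 24.1 CPM in the others and to 11.9 to 26.6 CPM in non-EcTM, with Clec9a and Ccr7 listed at 0.

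Itga5 encodes the alpha5 chain of the classical fibronectin receptor and Itga6 a laminin-binding chain, and both were thinly counted. Itga5 had 15, 29, 42 and 21 counts in E591, E592, E604 and E606, and 7, 7, 29 and 41 counts in N591, N592, N604 and N606. Its fitted log2 fold change was 0.56 ± 0.63, with pair log2 ratios from -0.66 to 1.95. With 1 library left out it ran from 0.25 without E604 to 0.95 without N606. Itga6 had 27, 24, 5 and 15 counts in E591, E592, E604 and E606, and 13, 18, 14 and 13 counts in N591, N592, N604 and N606. The log2 fold change of Itga6, 0.48 ± 0.66, was smaller than its SE, and the counting error reached 44.7% in a library. With 1 library left out it ran from 0.16 without E591 to 0.79 without E604. Over all 19 alternatives Itga5 ran from 0.08 to 1.32 and Itga6 from -0.06 to 0.79. The authors' deposited log2 values gave differences of 0.08 for Itga5 and 0.04 for Itga6.

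Too few counts for any comparison were found for Itgb5, which encodes a beta chain that pairs with alphav, and for Itgal, which encodes CD11a, the alpha chain of the lymphocyte adhesion receptor LFA-1. Both were listed at 0 in 8 of 8 libraries. The other 8 chains passed edgeR's filter on low counts, and 3 of them, Itga5, Itga6 and Itgax, had at most 80 counts in any library. These 5 chains each have at least 2 curated coding transcripts in RefSeq. Itgb1, Itga4, Itgav and Itgb2, each with 1, had 345 to 2709 counts per library, and Itga9 has 2. For the 27 integrin chains in the table, counts totalled over 8 libraries had a median of 29 for the 15 with 1 coding transcript, 4 of them above 1000 counts, and 1.5 for the 12 with more, 1 of them above 1000. Itgam, which encodes CD11b of macrophages, has 2 and was listed at 0 in 8 of 8 libraries. Itgb2 has 3 curated transcripts when those that do not code are included, and it totalled 15554 counts. Most chains with 1 coding transcript had low counts too. The scale of counts for genes with several transcripts is uncertain, and whether reads were left uncounted, or alike in EcTM and non-EcTM, was not tested.

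**Figure D4:**
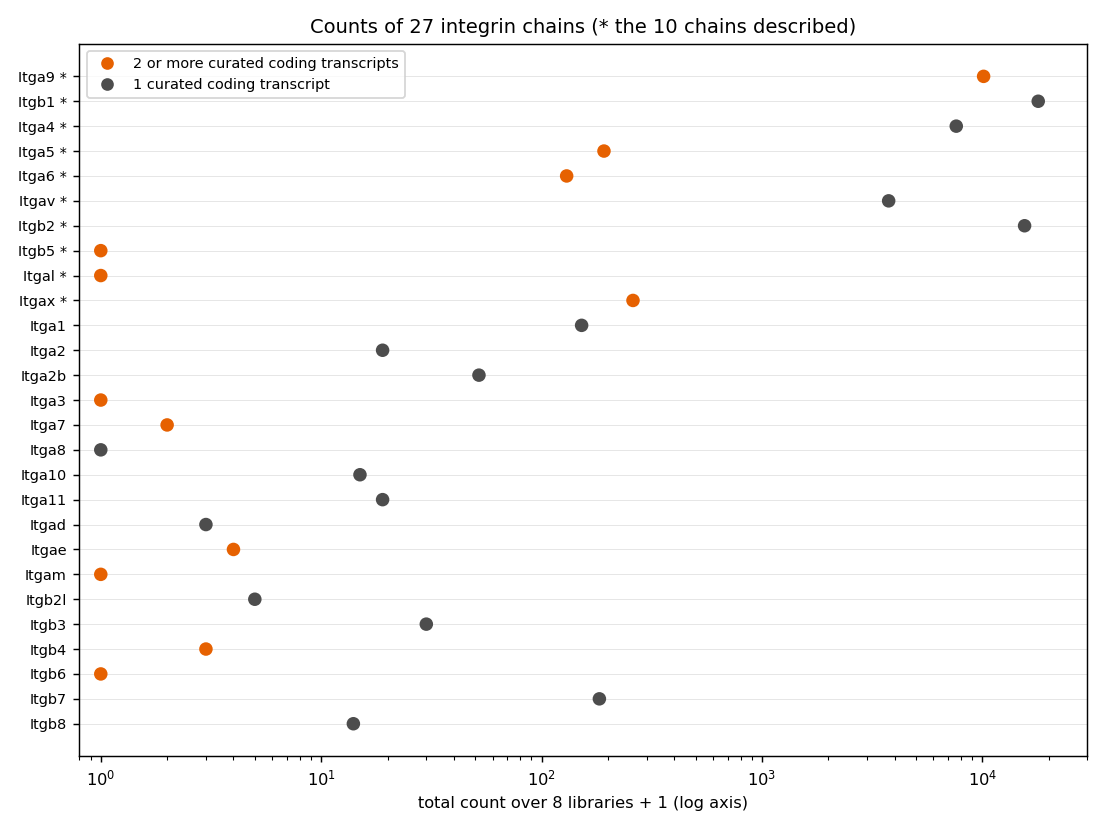
Total count over 8 libraries plus 1 (log axis) of 27 integrin chains, orange for 2 or more curated coding transcripts in RefSeq and grey for 1. Itgb1, Itgb2, Itga9, Itga4 and Itgav stand between 3758 and 17937 counts, no other chain passes 259, and Itgb5, Itgal and Itgam are among the 6 at 0.

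The 2 curated transcripts of Itga9 differ in length. The gene lies on the plus strand of chromosome 9 from 118606690 to 118901003 (GENCODE M21, GRCm38). The long transcript has 28 exons and 7020 exonic bases, of which 5210 are in no other curated transcript. The short one starts 104967 bases into the gene and has 14 exons and 1935 bases, of which 125 are its own and 1810 are shared. Its gene counts do not say which transcript was read. The antisense gene Gm2415 overlaps the end of Itga9 on the other strand, but 0 bases of its exons lie under exons of either curated transcript, and Gm2415 has no row in the table. On the same build Itgb1 lies at chr8:128685654-128733200 (plus strand), Itga4 at chr2:79255426-79333123 (plus strand), Itgav at chr2:83724397-83806916 (plus strand), Itgb2 at chr10:77530252-77565708 (plus strand) and Itgax at chr7:128129547-128150657 (plus strand). Itga5 lies at chr15:103344286-103366763 (minus strand) and Itga6 at chr2:71745616-71858416 (plus strand). Other annotated genes overlap Itga4, Itga5, Itga6 and Itgav, and whether their exons overlap was not checked, while 0 overlap Itgb1, Itgb2 or Itgax.

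Of the genes annotated within 500 kb of Itga9, 5 had enough counts to test. Their group means lay closer together than those of Itga9, which was chosen for its difference, so this is a description. Golga4, which encodes a Golgi tethering protein and lies on the upstream side, stood at 388 ± 69.0 CPM across EcTM, against 379 ± 40.1 CPM across non-EcTM (SD, n = 4 each), with a log2 fold change of 0.03 ± 0.13. Ctdspl, which encodes a phosphatase and lies downstream, had 23.6 ± 6.21 and 23.9 ± 5.54 CPM in the same order. The adaptor gene Myd88 had 235 ± 40.5 CPM across EcTM, against 214 ± 35.5 CPM across non-EcTM, a log2 fold change of 0.14 ± 0.15. The EcTM library was the higher in 4 of 4 pairs, as for 7.26% of all tested genes. With Cmc1 and Acaa1a, which had log2 fold changes of -0.39 ± 0.63 and 0.05 ± 0.56, 0 of 5 passed in edgeR at an adjusted p of 0.998 each. In that fit 0 of all 7667 tested genes passed.

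The 5 tested genes whose log2 CPM followed Itga9 most closely over the 8 libraries, by Pearson correlation, were Ssrp1, Crebbp and Prdm1 at 0.94 and Cecr2 and Mpeg1 at 0.92. They share the libraries and are the highest values over all tested genes, so these are descriptions. Ssrp1 and Cecr2 had only 220 and 193 counts in all, and Crebbp ran only from 995 to 1169 CPM. Prdm1, which encodes the transcriptional repressor BLIMP-1, had 126, 120, 69.7 and 139 CPM in E591, E592, E604 and E606, and 76.6, 84.9, 75.0 and 92.1 CPM in N591, N592, N604 and N606. It shared with Itga9 a low E604 and the highest value in E606. Mpeg1, which encodes the pore-forming protein perforin-2, had 1231, 1258, 1068 and 1345 CPM in the EcTM libraries and 939, 944, 1030 and 1120 CPM in the non-EcTM libraries, in the same order. Among the other chains the correlation with Itga9 over the 8 libraries was 0.83 for Itgax, 0.50 for Itga6 and 0.37 for Itgb2, and 0.00 to 0.14 for Itgb1, Itgav, Itga5 and Itga4. These values hold the difference between the groups. With the group means removed the correlation was 0.79 for Itgax, 0.67 for Itgav, 0.58 for Itga6, 0.54 for Itga4 and 0.29 for Itgb2, and it was -0.34 for Itga5 and -0.46 for Itgb1. Both sets are descriptions over 8 libraries.

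Markers of other cell types were set beside Itga9. Endothelial and endocardial markers, 6 of 11 with a count, had sums of 337, 50.5, 32.5 and 233 CPM in E591, E592, E604 and E606, against 890, 87.3, 147 and 116 CPM in N591, N592, N604 and N606. Pecam1, Tek, Emcn, Npr3 and Nfatc1 were at 0. The lowest sum was in E604, the EcTM library lowest in Itga9, yet N591 had the highest sum with 219 CPM of Itga9. Lymphatic endothelial markers, 2 of 5 with a count and Pdpn, Reln and Ccl21a at 0, ran from 13.8 to 25.3 CPM in EcTM and from 19.5 to 39.3 CPM in non-EcTM. Smooth muscle and pericyte markers, 5 of 8 with a count and Myh11, Pdgfrb and Kcnj8 at 0, ran from 71.0 to 96.2 CPM in EcTM and from 74.8 to 258 CPM in non-EcTM. Fibroblast markers, 6 of 7 with a count and Pdgfra at 0, ran from 24.5 to 126 CPM in EcTM and from 22.3 to 188 CPM in non-EcTM. Cardiomyocyte markers, 5 of 8 with a count and Myh6, Tnnt2 and Pln at 0, ran from 56.6 to 105 CPM in EcTM and from 77.9 to 123 CPM in non-EcTM. Neutrophil markers, 4 of 7 with a count, reached at most 3.51 CPM in E604 and 6.54 CPM in N604. T, NK and B cell markers, 6 of the 10 in the table with a count, ran from 26.4 to 67.1 CPM in EcTM and from 38.6 to 58.4 CPM in non-EcTM. The part of these cells in the levels of Itga9 was not tested.

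Over all genes, edgeR's comparison of EcTM with non-EcTM called 0 of 7667 genes at an adjusted p under 0.05 (0.00%), with 257 at an unadjusted p under 0.05 (3.35%). DESeq2 called 0 of 14295 (0.00%), with 457 unadjusted (3.20%). The chains were chosen with this contrast known, so their counts are given without a reading: 0 of 8 chains were called without pairing, and 1 unadjusted, in both tools. With the number as a replicate block edgeR called 1 of 8, Itga9, against 1 of all 7667 genes (0.0130%), and 414 unadjusted (5.40%), and DESeq2 called 1 of 8, again Itga9, against 26 of 2660 genes (0.977%). The edgeR call of Itga9 rests on an SE of 0.20, which understates the spread of its pairs (SD 1.01). The median log2 fold change was 0.28 over the 8 chains and 0.01 over all tested genes, and 6 of 8 chains were positive. For 0 of 8 chains did all libraries of one group lie above all of the other, which 2.70% of genes showed.

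Other genes of integrin biology were compared between the groups. Their values were not used to choose the chains, but their lists were drawn up with earlier results of these data known. Of 125 such genes in 6 lists, 68 were tested, and edgeR called 0 of 68. At an unadjusted p under 0.05 there were 5 of 68, against 257 of all 7667 genes (3.35%). DESeq2 called 0 of the 101 it tested, with 6 unadjusted, against 457 of all 14295 genes (3.20%). With the replicate block edgeR again called 0 of 68, with 9 unadjusted, against 414 of all 7667 genes (5.40%). These unadjusted shares of the lists were above those of all genes, and the excess was not tested. In all 34 of 68 had a positive log2 fold change. Of the 68, 2 were higher in EcTM in 4 of 4 pairs (7.26% of all tested genes) and 6 were lower in 4 of 4 (6.93%). For 3 of 68 the groups did not overlap (2.70% of all tested genes). The smallest adjusted p in edgeR was 0.998 in each list without the block and 0.277 to 0.99 with it.

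The remaining integrin chains had few counts. Of 17, 2 were tested, the mucosal beta chain gene Itgb7 at 10.6 ± 3.88 CPM across EcTM, against 8.27 ± 2.28 CPM across non-EcTM, and the collagen-binding chain gene Itga1 at 7.27 ± 4.90 and 8.08 ± 4.25 CPM in the same order. E604 had 0 counts of Itga1, against 9.05 to 10.7 CPM in the other EcTM libraries.

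Ligands of the Itga9 and Itga4 products numbered 18 in the table, 5 of them tested, with a median log2 fold change of 0.01. Vcam1, which encodes a shared ligand of both chains, had 193, 170, 206 and 143 CPM in E591, E592, E604 and E606, and 187, 178, 210 and 141 CPM in N591, N592, N604 and N606. The order of the pairs was the same in both groups, though Vcam1 did not pass the comparison between numbers, and its log2 fold change was -0.01 ± 0.15. The matricellular gene Cyr61 had 437 ± 75.4 CPM across EcTM, against 393 ± 77.7 CPM across non-EcTM. The EcTM library was the higher in 4 of 4 pairs, as for 7.26% of all tested genes. The difference was 0.15 ± 0.15 on the log2 scale and did not pass the test. Spp1, which encodes osteopontin, was listed at 0, the fibronectin gene Fn1 had 3 counts in all and the tenascin gene Tnc had 1 to 17 counts per library. These 3 did not pass the filter on low counts and were not tested.

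Among 14 tested ligands of other integrins the median log2 fold change was -0.13, and 0 of 14 passed. Lama4, which encodes a laminin chain of vessel walls, had the smallest p, at 9.05, 2.23, 3.51 and 3.16 CPM in E591, E592, E604 and E606, and 54.8, 9.78, 11.8 and 13.2 CPM in N591, N592, N604 and N606. Its groups did not overlap, as for 2.70% of all tested genes, and N591, the library richest in endothelial markers, stood apart. The log2 fold change of Lama4 was -2.32 ± 0.65 with an adjusted p of 0.998. Tgfb1, whose latent product alphav integrins can activate, had 479 ± 74.3 CPM across EcTM, against 413 ± 25.0 CPM across non-EcTM, with an adjusted p of 0.998. Fbn1 and Nid1 encode matrix proteins and had log2 fold changes of -1.30 ± 0.61 and -1.22 ± 0.68 at the same adjusted p.

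Of 26 tested activators and adaptors 0 passed, with 14 positive and a median of 0.04. The kindlin gene Fermt2 had 5.75 ± 3.69 CPM across EcTM, against 19.6 ± 22 CPM across non-EcTM. Its groups overlapped, at 0.877 to 9.38 CPM and 5.87 to 52.4 CPM in the same order, with the highest value in N591. Rasgrp3, which encodes an exchange factor for small GTPases, had 1.76 ± 1.25 CPM across EcTM, against 8.28 ± 3.79 CPM across non-EcTM, with a log2 fold change of -2.20 ± 0.77 and an adjusted p of 0.998. Its groups did not overlap, as for 2.70% of all tested genes, on 2 to 31 counts per library. Apbb1ip, which encodes RIAM, a protein that brings talin to integrins, had 262 ± 44.9 CPM across EcTM, against 213 ± 28.7 CPM across non-EcTM, and Parvb, which encodes an adaptor that binds ILK, had 218 ± 5.58 and 191 ± 28.2 CPM in the same order.

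Inhibitors and trafficking genes had 11 tested members, a median of -0.11 and 0 that passed. The recycling gene Rab11a, at 105 ± 34.1 CPM across EcTM, against 128 ± 9.91 CPM across non-EcTM, had the smallest p of the list, followed by Tns3, Shank3 and Snx17. Membrane partners had 10 tested members, a median of 0.16 and 0 that passed. The tetraspanin gene Cd9 had 18.6, 63.9, 60.5 and 69.9 CPM in E591, E592, E604 and E606, and 21.4, 26.6, 31.4 and 36.0 CPM in N591, N592, N604 and N606. The EcTM library was the higher in 3 of 4 pairs, with a log2 fold change of 0.88 ± 0.34 and an adjusted p of 0.998, and its low EcTM library was E591, not E604. Cd53, Cd81 and Cd47 had log2 fold changes of -0.13 to 0.13.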

How the data were processed

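RNA of sorted cardiac macrophages was sequenced in 8 libraries, 4 of EcTM and 4 of non-EcTM. Per the labels' protocols, libraries of total RNA used a stranded kit for very small inputs, and the submitters' processing notes list bcl2fastq 2.17, TopHat, mm10, DESeq2 and R 3.2. The sources used here name neither the counter nor its annotation or strand setting. The authors deposited raw counts per gene, and log2 values headed as CPM. A regularised log of the counts, with number and group in its design, came within 0.00881 of these deposited log2 values in 14319 genes. Columns were mapped by title.

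The chains, the lists and the rule for named genes were chosen with earlier results of these data known. The rule names the 10 chains, up to 4 genes per list by smallest unadjusted p with Itgam, Itgb7, Tnc, Spp1, Fn1 and Vcam1 added, genes within 500 kb of Itga9 and the 5 genes most like it. Lama4, Fermt2, Rasgrp3 and others came in by that rule. Pathway genes that differed between the numbers were named after their values were seen.

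Genes were kept with filterByExpr (7667) and compared in edgeR 4.0.16 by the quasi-likelihood F-test with TMM factors in R 4.3.3, Benjamini-Hochberg adjusted with a threshold of 0.05. CPM use the same factors, and log2 CPM a prior count of 2. The SE of a fitted log2 fold change is its absolute value over the square root of its F statistic. DESeq2 1.42.0 was run beside it. A test of the 4 numbers had the group as covariate. Same-numbered libraries deviated together from their group means (Pearson correlations across genes of 0.12 to 0.19, against -0.13 to 0.05 for other pairs), so the number was used as a replicate block in alternatives. Counting errors cover counting only. Transcripts and positions come from RefSeq GRCm38.p6 and GENCODE M21, and protein sequences were not used here. The result of 1 marker list is not reported here. Alternatives were other size factors, no filter, DESeq2, the block and leaving out each library or number. Figures used matplotlib 3.10.9 in Python 3.11.15.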

Additional observations from a re-analysis of the deposited data

Results flagged for a closer look

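Of 60 groups of 4 libraries checked over 8 chains and the named pathway genes, 6 held a library far from the other 3, by a gap to its neighbour over Dixon's critical share of the group's range. For independent values of a normal distribution chance alone gives about 1 in 20. The groups checked share libraries, and many of their genes were named by smallest p, so 6 of 60 cannot be set against that share. None of the 16 groups of the 8 chains was among the 6.

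In EcTM, Itga1 was at 0 CPM in E604 and between 9.05 and 10.7 CPM in E591, E592 and E606. The other 5 were all N591 within non-EcTM. Lama4 stood at 54.8 CPM in N591, with 9.78 to 13.2 CPM in N592, N604 and N606. Nid1 stood at 67.1 CPM, with 9.24 to 16.1 CPM in the others. Fermt2 stood at 52.4 CPM, with 5.87 to 11.2 CPM in the others. Shank3 stood at 66.3 CPM, with 3.52 to 10.5 CPM in the others. Emilin1 stood at 82.6 CPM, with 52.4 to 56.4 CPM in the others. N591 also had the highest sums of the 8 libraries for endothelial markers, 890 CPM, smooth muscle and pericyte markers, 258 CPM, fibroblast markers, 188 CPM, cardiomyocyte markers, 123 CPM, and lymphatic endothelial markers, 39.3 CPM. The part of these cells in the values was not tested.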

How the results depend on the processing

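Itga9 kept a positive log2 fold change in 19 of 19 alternatives, between 1.37 and 2.24, and it was 1.47 on the authors' deposited log2 scale. The lowest came with the replicate block without E606 and N606 and the highest without E604. Itga9 was chosen by these same libraries, so its constant sign is a description and no support. Itga5, Itgav and Itgax kept their sign, while Itgb1, Itga4, Itga6 and Itgb2 each changed it in 1 of 19, to -0.01, 0.02, -0.06 and -0.01, and the cause was not tested. The count of genes called between EcTM and non-EcTM, 0, became 7 with no filter on low counts, 1 with the replicate block in edgeR and 26 with it in DESeq2, or 17 with DESeq2's filter set for a threshold of 0.1 (added after seeing the data). Leaving out 1 library gave 0 to 1, the 1 without E604, and leaving out 1 number with the block gave 1 to 2. It stayed 0 with DESeq2 size factors and in DESeq2 without the block. The count between numbers, 233, became 350 with no filter, 442 in DESeq2 and 146 to 179 without 1 number. The pathway count stayed 0 in all 18 alternatives. At most 26 genes of the whole table were called in any of them, so this 0 does not show that the pathway genes were unchanged. Itga5, Itga6 and Itgax rest on 5 to 80 counts per library. The scale of Itga9 is uncertain, since whether reads shared by its transcripts were counted was not tested.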

Other observations

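Among the 68 tested genes of the integrin lists, 7 (10.3%) differed between the 4 numbers in edgeR at an adjusted p under 0.05, where 3.04% of all tested genes did. Col4a2, which encodes a basement membrane collagen chain, had the smallest adjusted p, 5.33e-07, at 317, 154, 75.4 and 161 CPM in E591, E592, E604 and E606, and 546, 149, 127 and 148 CPM in N591, N592, N604 and N606. Lamb1, Col1a1 and Shank3 were likewise highest in E591 within EcTM and in N591 within non-EcTM, the libraries in which endothelial markers also summed highest, at 337 and 890 CPM. Fibroblast markers, of which Col1a1 is one, were likewise highest there, at 126 and 188 CPM, as were smooth muscle and pericyte markers, at 96.2 and 258 CPM, and cardiomyocyte markers, at 105 and 123 CPM. The part of these cells was not tested. The talin gene Tln2 followed another order, with mean CPM of 86.6, 97.6, 178 and 185 for the pairs in the same order and an adjusted p of 0.00145. Tgm2, which encodes a transglutaminase, was lowest in both groups in 1 pair, at 59.0 CPM in E592 and 51.7 CPM in N592. Cyr61 was lowest in E604 and N604, with a mean of 318 CPM there and 396 to 496 CPM in the other pairs. Each of the 7 also passed DESeq2's likelihood ratio test, with adjusted p-values from 3.12e-20 to 0.000624.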
